A study of Mus musculus with 21 samples.

Results

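This comparison sets the tumour effect of one way of lowering Gs to protein kinase A (PKA) signalling against that of another. It uses 14 of the 21 libraries of a bulk RNA sequencing study of basal cell carcinoma (BCC) models: those of the Gnas-eKO mice (3 Con and 4 BCC libraries) and those of the PKI mice (3 Con and 4 BCC libraries). For each gene the tested quantity was the difference of BCC effects, that is the log2 fold change of BCC over Con in PKI minus the log2 fold change of BCC over Con in Gnas-eKO. A positive difference therefore means that the gene moved up more, or down less, in PKI. All 17254 genes that passed a filter on low counts were tested, of 23713 genes in the deposited table. The libraries hold polyA RNA of keratinocytes freed from mouse tail skin with trypsin and dispase. BCC libraries come from mice in which tumours were induced, and Con libraries from each model's own control mice. Tail skin was collected 42 days from induction in Gnas-eKO (batch B) and 57 days from it in PKI (batch C), so model, batch and day cannot be told apart. An offset shared by all libraries of a batch cancels in the difference, whereas a batch or day that changes the size of a tumour effect does not. The labels give neither the promoter or Cre that drives either allele, nor the strain, sex and age of the mice, and they do not say whether the control mice carry any of the alleles. They do not say either that each library is a separate animal, so p-values measure the spread between these samples.

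Gnas encodes the alpha subunit of the stimulatory G protein, Gs, which couples hormone and neurotransmitter receptors to adenylyl cyclase. The cyclic AMP that results releases the catalytic subunits of PKA, and PKI is the name of a family of small proteins that bind those subunits and block them. PKA phosphorylates Gli transcription factors and favours their processing into repressors, which restrains the Hedgehog pathway, the pathway that drives BCC. Knockout of Gnas acts above cyclic AMP, and PKI acts on the kinase itself.

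Library totals ran from 16645858 to 22062731 estimated counts, at which 3 counts correspond to 0.132 to 0.189 CPM (counts relative to the TMM-scaled library total). In Gnas-eKO BCC 2 libraries stood apart. Replicate 2 had a first principal component score of −31.9, between the 6 Con libraries (−58.2 to −41.9) and the other 3 Gnas-eKO BCC libraries (22.4 to 37). The 4 PKI BCC libraries had scores of 50.2 to 77.2. Replicate 3 correlated with its companions at 0.939 to 0.962 over genes, as low as replicate 2 (0.939 to 0.961), where replicates 1 and 4 reached 0.977. It also had the highest summed CPM of cytosolic ribosomal protein genes, 20870 against 11820 to 14410 in the other 3. The keratins of basal keratinocytes were abundant in every library. Krt5 had 15920 to 17060 CPM (Gnas-eKO Con), 7616 to 15450 CPM (Gnas-eKO BCC), 14400 to 16210 CPM (PKI Con) and 12750 to 13200 CPM (PKI BCC). Krt14, its partner, had 13570 to 15040 CPM (Gnas-eKO Con), 3850 to 10970 CPM (Gnas-eKO BCC), 12320 to 14730 CPM (PKI Con) and 11880 to 14800 CPM (PKI BCC), with the lowest values in Gnas-eKO BCC replicates 1, 3 and 4. The log2 fold change of Krt14 was −1.20 (edgeR adjusted p 0.0189) in Gnas-eKO and −0.01 (edgeR adjusted p 0.985) in PKI, and its difference of 1.19 (SE 0.41, edgeR adjusted p 0.0859) did not pass the threshold. It passed without Gnas-eKO BCC replicate 2 (1.63, edgeR adjusted p 0.00127), in the joint fit of 21 libraries, with DESeq2 and with limma.

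The effects of the 2 models differed in 1564 genes at an adjusted p under 0.05, which is 9.06% of those tested. The difference was positive in 775 genes (4.49%) and negative in 789 (4.57%), and its median over all genes was −0.04. In the same fit the BCC effect itself was called in 4373 genes in PKI (25.3%), of which 2332 rose (13.5% of those tested) and 2041 fell (11.8%). In Gnas-eKO it was called in 1734 genes (10.0%), of which 1132 rose (6.56%) and 602 fell (3.49%). The share of Gnas-eKO calls that rose was 65.3%, and 81.1% with scaling by library totals alone, and a fit of the 7 Gnas-eKO libraries on their own called 267 genes. In the fit of 14 libraries less 1, the Gnas-eKO count was 518, 658 and 898 without Gnas-eKO Con replicate 2, 1 and 3, and 944, 3363 and 883 without Gnas-eKO BCC replicate 1, 2 and 4. The PKI count was 2749 and 2763 without PKI Con replicate 2 and 3. Of the 775 genes with a positive difference, 578 rose in PKI with no call in Gnas-eKO, 77 fell in Gnas-eKO with no call in PKI, 51 rose in PKI and fell in Gnas-eKO, 11 rose in both and 58 were called in neither. Of the 789 with a negative difference, 454 fell in PKI with no call in Gnas-eKO, 190 rose in Gnas-eKO with no call in PKI, 59 fell in PKI and rose in Gnas-eKO, 16 rose in both, 3 fell in both and 67 were called in neither. The plot of one effect against the other shows both groups. The count depends on single libraries: it was 673 without Gnas-eKO Con replicate 2, 782 without PKI Con replicate 3, 823 without Gnas-eKO Con replicate 1, 837 without PKI Con replicate 2, 874 without PKI BCC replicate 2, 1019 without PKI Con replicate 1 and 2512 without Gnas-eKO BCC replicate 3. Without Gnas-eKO BCC replicate 2 it was 2065, of which 1476 were among the 1564. No called gene changed sign in any of the 14 fits that left out 1 library, which the libraries shared with the main fit make unlikely from the start. Of the 1564 genes, 568 were called in each of those 14 fits.

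**Figure D1:**
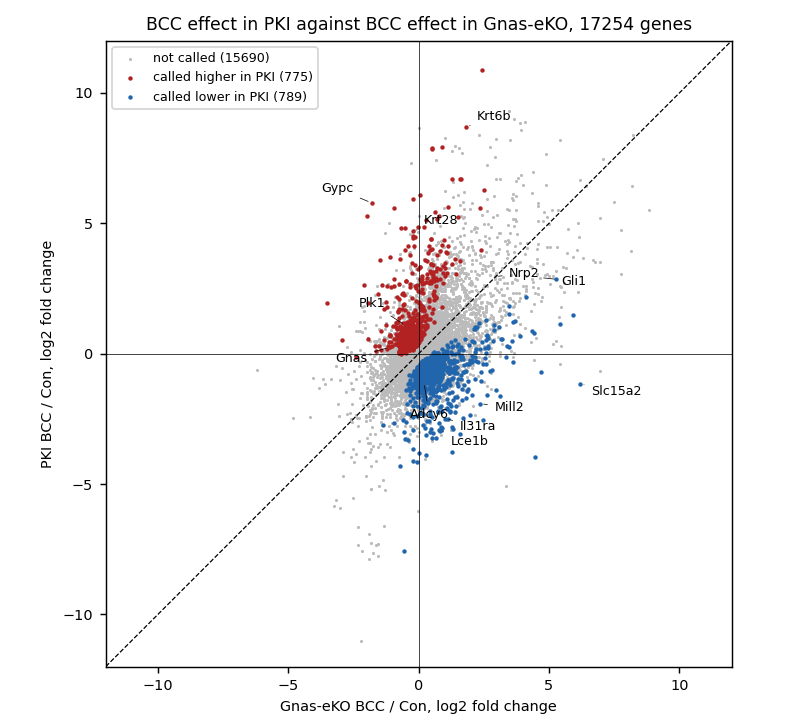
Log2 fold change of BCC over Con in PKI (vertical axis) against that in Gnas-eKO (horizontal axis) for 17254 genes, with the line of equal effects dashed. Red points are the 775 genes with a positive difference at an adjusted p under 0.05 and blue points the 789 with a negative one. Of the red points, 578 were called in PKI and not in Gnas-eKO.

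In the Gs-PKA pathway itself, 5 of 30 tested genes differed: Gnas had a positive difference, and Adcy6, Adcy1, Pkia and Pde3a had negative ones. The list counts here and below stand beside shares over all tested genes of 9.06% called, 4.49% positive and 4.57% negative. Gnas, the gene targeted in Gnas-eKO (GRCm38 chromosome 2, 174284320 to 174346744, plus strand), had 177, 173 and 170 CPM in Gnas-eKO Con, 115, 88.9, 50.6 and 65.1 in Gnas-eKO BCC, 262, 233 and 242 in PKI Con and 315, 295, 280 and 272 in PKI BCC. The 4 Gnas-eKO BCC libraries lay below their 3 Con libraries, and the 4 PKI BCC libraries lay above theirs, without overlap in either model. On the log2 scale it fell by 1.12 in Gnas-eKO (edgeR adjusted p 0.00415) and had an uncalled change of 0.24 (edgeR adjusted p 0.405) in PKI, and the difference was 1.36 (SE 0.28, 95% interval 0.76 to 1.96, edgeR adjusted p 0.0111). Gnas shares exonic bases with Nespas and Gm20721 on the other strand, and whether counting used the strand is not given in the sources used here. The call held without each of the 14 libraries in turn.

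Adcy6, an adenylyl cyclase that makes cyclic AMP (GRCm38 chromosome 15, 98589973 to 98610076, minus strand), had 39.6, 36.1 and 44.6 CPM in Gnas-eKO Con, 46.7, 43.4, 49.3 and 45.2 in Gnas-eKO BCC, 48.7, 47.7 and 50 in PKI Con and 22.2, 22.8, 25.7 and 20.7 in PKI BCC. Each PKI BCC library had less than any of the other 10 libraries, which lay close together. Its difference was −1.30 (SE 0.14, 95% interval −1.59 to −1.0, edgeR adjusted p 0.00070), which was among the 5 smallest p-values of all genes and held without each library in turn. Adcy1, another adenylyl cyclase, went the same way with −1.88 (SE 0.52, edgeR adjusted p 0.0386), a call that held without 3 of the 14 libraries. Its 4 PKI BCC libraries (1.56 to 2 CPM) overlapped PKI Con, where replicate 1 had 1.9 CPM.

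Pkia encodes 1 of 3 endogenous PKA inhibitors of the PKI family and had 4.84, 3.23 and 4.95 CPM in Gnas-eKO Con, 6.96, 5.75, 5.88 and 6.58 in Gnas-eKO BCC, 4.15, 3.71 and 4.98 in PKI Con and 2.12, 2.14, 3.69 and 3.08 in PKI BCC. The Gnas-eKO BCC libraries all lay above their Con libraries and the PKI BCC libraries all below theirs. The difference was −1.17 (SE 0.34, 95% interval −1.88 to −0.45, edgeR adjusted p 0.0446), with neither effect called on its own (−0.63 (edgeR adjusted p 0.0665) in PKI and 0.53 (edgeR adjusted p 0.168) in Gnas-eKO), and it was called in 3 of the 14 fits without 1 library, where its adjusted p ranged from 0.027 to 0.121. The sources used here do not say whether the PKI transgene is counted as Pkia, so these values do not check the label PKI. Pkib, at 0.315 to 2.37 CPM, rose in PKI by 1.86 (edgeR adjusted p 0.00591) and had an uncalled difference of 0.97 (SE 0.58, edgeR adjusted p 0.316), and Pkig had one of 0.02 (SE 0.21, edgeR adjusted p 0.968). Pde3a, a phosphodiesterase that degrades cyclic AMP, had 0.202, 0.167 and 0.0505 CPM in Gnas-eKO Con, 2.03, 0.586, 1.06 and 1.34 in Gnas-eKO BCC, 0.65, 0.315 and 0.66 in PKI Con and 0.155, 0.104, 0.22 and 0.216 in PKI BCC, which in the low groups is near the 3-count floor, so its fold is not given (edgeR adjusted p 0.00411).

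The count of negative calls in this pathway was 7 without Gnas-eKO BCC replicate 3, and 2 without any of 9 libraries (Gnas-eKO Con replicates 1 and 2, Gnas-eKO BCC replicates 1 and 4, PKI Con replicates 2 and 3, PKI BCC replicates 1, 2 and 4). The kinase subunits were not among the calls in the difference. Prkaca, the main catalytic subunit, had a difference of 0.35 (SE 0.15, 95% interval 0.03 to 0.67, edgeR adjusted p 0.157), and Prkacb, a second catalytic subunit, of −0.23 (SE 0.32, 95% interval −0.92 to 0.45, edgeR adjusted p 0.698). Prkar1a, a regulatory subunit that holds the catalytic subunits inactive, rose in PKI (0.31 (edgeR adjusted p 0.019)). Its difference was 0.26 (SE 0.12, 95% interval 0.00 to 0.52, edgeR adjusted p 0.197). The intervals of these 3 differences reach up to 0.67, 0.45 and 0.52 on the log2 scale in favour of PKI. That of Prkacb reaches farther the other way, to −0.92. None of 18 tested targets of CREB, the transcription factor that PKA activates, was called in the difference by edgeR, with 2 at an unadjusted p under 0.05, and DESeq2 and limma called 1 each, as did edgeR without Gnas-eKO BCC replicate 3 and in the joint fit of 21 libraries, there with a negative difference. The list's median was 0.18. The CREB target Areg, an EGF receptor ligand, had 0.39 to 1.82 CPM (Gnas-eKO Con), 0.745 to 4.08 CPM (Gnas-eKO BCC), 0.566 to 1.14 CPM (PKI Con) and 8.56 to 14.1 CPM (PKI BCC), rose in PKI (3.77 (edgeR adjusted p 0.00104)) and had an uncalled difference of 2.31 (SE 0.81, edgeR adjusted p 0.0905), which passed without Gnas-eKO BCC replicate 3, with DESeq2 and with limma (adjusted p 0.0225 to 0.0425). The palindromic cyclic AMP response element TGACGTCA, the DNA letters to which CREB binds, stood in 24 of 569 promoters of genes with a positive difference (4.22%), in 15 of 593 with a negative one (2.53%) and in 386 of all 11480 promoters of tested genes (3.36%).

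**Figure D2:**
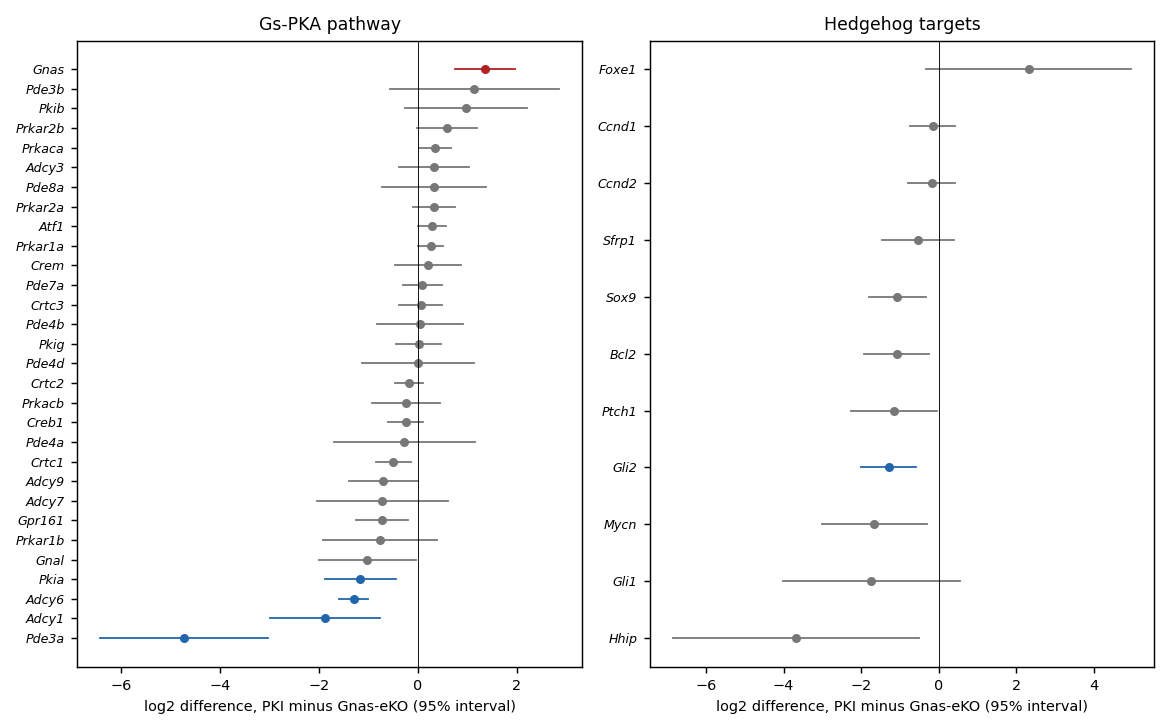
Difference of BCC effects on the log2 scale, PKI minus Gnas-eKO, with its 95% interval for the 30 tested Gs-PKA genes (left) and 11 of the 12 Hedgehog targets (right). Red marks a called positive and blue a called negative difference. Gnas alone is red, and 10 of the 11 Hedgehog targets drawn lie left of 0, 1 of them called.

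Of 12 Hedgehog targets 7 rose in Gnas-eKO, and 6 rose and 1 fell in PKI. Their differences were negative for 11 of 12, with a median of −1.08 against −0.04 for all genes. In the main fit 1 alone, Gli2, passed the threshold, a share near the 9.06% of all tested genes. DESeq2 and the joint fit of 21 libraries each called 3 of the 12 negative. Gli2 is a transcription factor that carries the Hedgehog signal to its target genes (GRCm38 chromosome 1, 118834132 to 119053619, minus strand). It had 14.9, 17.3 and 21.1 CPM in Gnas-eKO Con, 117, 89.4, 82.6 and 140 in Gnas-eKO BCC, 15, 15.7 and 21.1 in PKI Con and 33, 32.1, 46.4 and 58.3 in PKI BCC. All BCC libraries lay above all Con libraries, and the 4 PKI BCC libraries lay below the 4 Gnas-eKO BCC libraries. The difference was −1.29 (SE 0.33, 95% interval −2.0 to −0.58, edgeR adjusted p 0.029). This call ended without any 1 of 7 libraries (Gnas-eKO Con replicates 1 and 2, Gnas-eKO BCC replicate 4, PKI Con replicates 2 and 3, PKI BCC replicates 1 and 2), with adjusted p of up to 0.0843.

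Gli1, a transcription factor and a direct target of the pathway, had 5.49, 4.73 and 9.85 CPM in Gnas-eKO Con, 235, 9.58, 278 and 152 in Gnas-eKO BCC, 14, 9.44 and 10.3 in PKI Con and 78.8, 66.8, 93.7 and 102 in PKI BCC. In Gnas-eKO BCC the values ran from 9.58 in replicate 2, within the range of Con, to 278 in replicate 3, while the PKI BCC libraries stayed between 66.8 and 102. Its difference was −1.73 (SE 1.04, 95% interval −4.01 to 0.54, edgeR adjusted p 0.328), and without replicate 2 of Gnas-eKO BCC it was −2.13 and called (edgeR adjusted p 0.00479). Ptch1 encodes the Hedgehog receptor that feeds back on the pathway, and had 29.8, 31.2 and 38.6 CPM in Gnas-eKO Con, 930, 269, 312 and 821 in Gnas-eKO BCC, 32.5, 30.8 and 40 in PKI Con and 258, 211, 286 and 334 in PKI BCC. Its difference of −1.15 (SE 0.52, 95% interval −2.26 to −0.04, edgeR adjusted p 0.184) did not pass. Smo, which encodes the signal transducer Smoothened, rose by 0.84 in Gnas-eKO and by 0.52 in PKI on the log2 scale, with an uncalled difference of −0.32 (SE 0.19, edgeR adjusted p 0.316). Without Gnas-eKO BCC replicate 2, 4 of the 12 targets had called negative differences, and without Gnas-eKO BCC replicate 3 there were 2.

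Genes of mitosis moved together. Of 24 tested, 23 had a called positive difference, all but Cenpf, with a median of 1.23 on the log2 scale. In PKI 23 of the 24 rose, while in Gnas-eKO 4 fell. Their summed CPM was 1049 to 1177 in Con and 1875 to 2034 in BCC of PKI, without overlap, against 951 to 1469 in Gnas-eKO Con and 665 to 948 in Gnas-eKO BCC. Plk1, a kinase that drives entry into and passage through mitosis (GRCm38 chromosome 7, 122159439 to 122169873, plus strand), had 17.9, 28.2 and 18.7 CPM in Gnas-eKO Con, 17.2, 14.3, 10.8 and 18.7 in Gnas-eKO BCC, 21.5, 22.6 and 21.8 in PKI Con and 51.3, 47.3, 40 and 47.5 in PKI BCC. The 4 PKI BCC libraries lay above the other 10, and 1 of 3 Gnas-eKO Con libraries, replicate 2, was higher than its companions. The difference was 1.58 (SE 0.26, 95% interval 1.02 to 2.14, edgeR adjusted p 0.00383). Ube2c, a ubiquitin-conjugating enzyme that ends mitosis with the anaphase-promoting complex, rose by 0.97 in PKI and fell by 0.59 in Gnas-eKO, with a difference of 1.56 (SE 0.23, edgeR adjusted p 0.00248). Cdc20, which activates that complex, had 1.46 (SE 0.23, edgeR adjusted p 0.00279). Cdk1, the kinase that starts mitosis, had 1.28 (SE 0.20, edgeR adjusted p 0.00317), and Top2a, the topoisomerase that untangles chromosomes, had 1.43 (SE 0.25, edgeR adjusted p 0.00481). The count of calls was at least 21 without any 1 library.

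Many promoters of mitosis genes carry a cell cycle homology region, TTTGAA on either strand (TTCAAA on the other), through which their transcription is timed. In RefSeq promoters (GRCm38.p6, 250 bases before to 50 after the gene start) these letters stood in 15 of 20 mitosis genes with an entry (75.0%), against 1709 of 11480 tested genes (14.9%). They stood in 141 of 569 promoters of genes with a positive difference (24.8%) and in 80 of 593 with a negative one (13.5%). A match is a match of letters and not a measured binding site. The last 80 bases before the start of 4 of these genes are shown because they hold the letters close to the start, with the 6 letters in capitals, read 5′ to 3′ on the gene's strand, at chr2:164769849-164769928 on the plus strand for Ube2c and, on the minus strand, at chr4:118437344-118437423 for Cdc20, chr10:69352913-69352992 for Cdk1 and chr11:99024190-99024269 for Top2a.
Ube2c: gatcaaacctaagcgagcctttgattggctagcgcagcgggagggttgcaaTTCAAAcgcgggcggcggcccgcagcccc
Cdc20: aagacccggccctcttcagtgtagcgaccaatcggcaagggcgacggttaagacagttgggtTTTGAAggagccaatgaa
Cdk1: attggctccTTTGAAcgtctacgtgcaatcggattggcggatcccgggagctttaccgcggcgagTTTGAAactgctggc
Top2a: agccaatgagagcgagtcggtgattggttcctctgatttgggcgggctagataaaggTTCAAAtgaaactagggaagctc

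Genes of DNA replication followed. Of 28 tested, 17 had a called positive difference, with a median of 0.78. In PKI 18 rose, and in Gnas-eKO 2 fell. Rrm2, the ribonucleotide reductase subunit that limits the supply of deoxynucleotides, had 61.6, 87.4 and 60.8 CPM in Gnas-eKO Con, 40, 52.4, 35 and 35.1 in Gnas-eKO BCC, 53, 45.4 and 45.9 in PKI Con and 114, 99.7, 81.4 and 82 in PKI BCC. The PKI BCC libraries lay above PKI Con, and the Gnas-eKO BCC libraries lay below Gnas-eKO Con. The difference was 1.75 (SE 0.25, 95% interval 1.22 to 2.28, edgeR adjusted p 0.0024). Mcm10, a factor that helps start replication, had 1.37 (SE 0.30, edgeR adjusted p 0.0154), and Mcm3, a subunit of the replicative helicase, had 1.13 (SE 0.21, edgeR adjusted p 0.00627). The count of calls was 9 without Gnas-eKO Con replicate 2, the library with the highest mitosis sum of its group, or without PKI Con replicate 2. It was 10 without Gnas-eKO BCC replicate 4, PKI Con replicate 3 or PKI BCC replicate 1 or 2, and 11 with scaling by library totals alone.

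Glycolysis and hypoxia genes had 12 of 25 called positive differences, with a median of 0.76. The calls took in enzymes of glycolysis between Pfkl and Ldha, and their share among those enzymes was not counted. In PKI 15 of the 25 rose. In Gnas-eKO 2 rose and 1 fell. Pkm, the pyruvate kinase that makes the last ATP of glycolysis, had 846, 875 and 857 CPM in Gnas-eKO Con, 624, 716, 638 and 763 in Gnas-eKO BCC, 652, 748 and 683 in PKI Con and 1564, 1571, 1247 and 1248 in PKI BCC. The 4 PKI BCC libraries exceeded all others, and the Gnas-eKO BCC libraries lay below Gnas-eKO Con. The difference was 1.34 (SE 0.18, 95% interval 0.97 to 1.72, edgeR adjusted p 0.00184). Slc2a1, the glucose transporter GLUT1 (GRCm38 chromosome 4, 119108711 to 119137983, plus strand), had 392, 226 and 243 CPM in Gnas-eKO Con, 127, 205, 169 and 180 in Gnas-eKO BCC, 128, 126 and 99.8 in PKI Con and 388, 357, 224 and 243 in PKI BCC. Here the 2 Con groups themselves lay apart, with the Gnas-eKO Con libraries as high as PKI BCC, and the difference was 2.11 (SE 0.33, 95% interval 1.39 to 2.82, edgeR adjusted p 0.00324). Egln3, an oxygen-sensing prolyl hydroxylase that hypoxia induces, had 1.63 (SE 0.31, edgeR adjusted p 0.00732). Slc16a3, which exports lactate, had 2.38 (SE 0.68, edgeR adjusted p 0.0464), a call that held without 4 of the 14 libraries. The list's count was 4 without Gnas-eKO Con replicate 2, 5 without PKI Con replicate 3 or PKI BCC replicate 2, 6 without PKI Con replicate 1, and 7 without Gnas-eKO Con replicate 3 or PKI Con replicate 2. Pkm, Slc2a1 and Egln3 were among the calls that held without every 1 library.

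The highest medians of the difference came from genes of the hair follicle. The inner root sheath is the rigid sleeve that guides a growing hair, and a set of type I and type II keratins marks it. Of 12 inner root sheath genes tested, 7 had a called positive difference, with a median of 4.43. In PKI 11 rose and in Gnas-eKO 1 rose. Krt28, an inner root sheath keratin (GRCm38 chromosome 11, 99364872 to 99374903, minus strand), had 9.78, 5.23 and 8.29 CPM in Gnas-eKO Con, 6.45, 8.68, 9.63 and 2.16 in Gnas-eKO BCC, 14.1, 2.08 and 3.42 in PKI Con and 177, 220, 159 and 132 in PKI BCC. PKI BCC lay far above the other 3 groups, which overlapped each other. The difference was 4.91 (SE 0.83, 95% interval 3.11 to 6.71, edgeR adjusted p 0.00564). Padi3, an enzyme that converts arginine to citrulline in trichohyalin, had 4.88 (SE 1.05, edgeR adjusted p 0.0155). Krt71 had 4.75 (SE 1.23, edgeR adjusted p 0.0356). Krt26 had 1.26, 0.0557 and 0.0505 CPM in Gnas-eKO Con, 0.461, 0.639, 2.33 and 0.144 in Gnas-eKO BCC, 0.65, 0 and 0 in PKI Con and 60.2, 76.2, 59.1 and 45.1 in PKI BCC. Replicates 2 and 3 of both Con groups and replicate 4 of Gnas-eKO BCC were at or below the 3-count floor. Its fold is therefore not given (edgeR adjusted p 0.0217). Krt71 was called without 4 of the 14 libraries, and Krt26 without all but Gnas-eKO Con replicate 1, where its adjusted p was 0.556. The list's count was 3 without that library, and 4 without PKI Con replicate 2, PKI Con replicate 3 or PKI BCC replicate 2.

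Hard keratins, which build the hair shaft and the tail scale, had 3 of 15 called positive differences (Krt35, Krt82 and Krt86), with a median of 2.98. In PKI 3 of the 15 rose (Krt32, Krt35 and Krt82) and Krt39 fell, with a median log2 fold change of 0.88. In Gnas-eKO all 15 fold changes lay below 0, with a median of −2.08, and Krt90 fell. The summed CPM of the list was 17242 to 38106 in Con and 108 to 21584 in BCC of Gnas-eKO, where replicate 2 was the high library, and 12209 to 28572 in Con and 1427 to 6112 in BCC of PKI. Most of that sum came from Krt36 and Krt84, which had mean CPM of 8748 and 12190 in PKI Con and 1571 and 2182 in PKI BCC. Their fold changes were called in neither model, and their differences were −0.11 and −0.18. Krt35 had 47.5, 17.4 and 27.9 CPM in Gnas-eKO Con, 16.1, 22.4, 31.9 and 5.13 in Gnas-eKO BCC, 22.1, 5.1 and 5.58 in PKI Con and 112, 234, 142 and 52.8 in PKI BCC. PKI BCC lay above PKI Con, whose replicate 1 was higher than the other 2 Con libraries, and above Gnas-eKO BCC. The difference was 4.33 (SE 0.99, 95% interval 2.16 to 6.50, edgeR adjusted p 0.0219). No member was left in this count without Gnas-eKO Con replicate 1 or without PKI Con replicate 3, with 0.0641 the highest adjusted p of Krt35. The count was 1 without PKI Con replicate 2 and 7 without PKI Con replicate 1. Keratins are similar in sequence, and reads that fit several of them may have been split between genes.

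**Figure D3:**
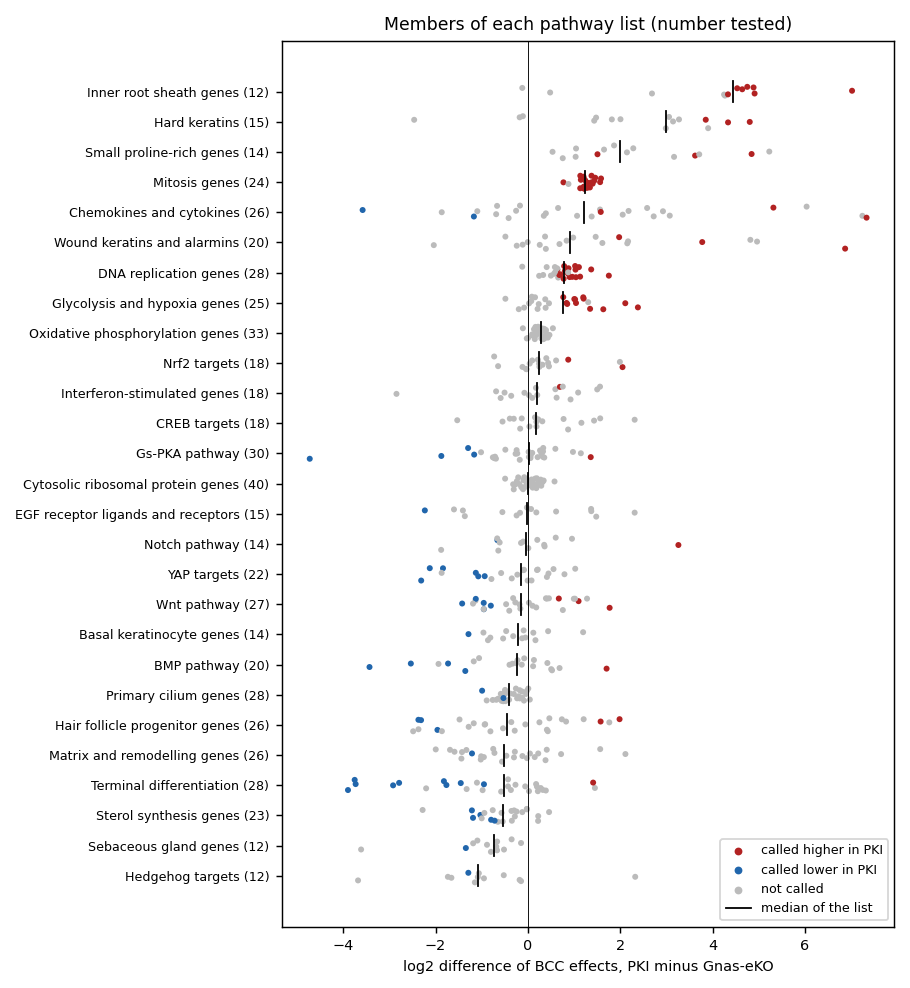
Difference of BCC effects on the log2 scale, PKI minus Gnas-eKO, for each tested member of 27 pathway lists, ordered by the list's median (black bar), with the number tested after the name. Red points are called positive and blue points called negative. The inner root sheath list has the highest median at 4.43, the mitosis points form a tight group near 1.23, and the Hedgehog list has the lowest median at −1.08.

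The wound keratins Krt6b and Krt16 rose in both models and further in PKI. Krt6b, a keratin of wounded and overgrowing epidermis (GRCm38 chromosome 15, 101676023 to 101680287, minus strand), had 135, 96.6 and 120 CPM in Gnas-eKO Con, 511, 97.8, 583 and 474 in Gnas-eKO BCC, 5, 8.56 and 4.92 in PKI Con and 4161, 3053, 1285 and 1692 in PKI BCC. PKI BCC lay above all others, and PKI Con lay below Gnas-eKO Con. The log2 fold change was 8.70 (edgeR adjusted p 5.51e-05) in PKI and 1.83 (edgeR adjusted p 0.0471) in Gnas-eKO, and the difference was 6.87 (SE 0.80, 95% interval 5.13 to 8.60, edgeR adjusted p 0.00119), of which a part comes from the low PKI Con values. Krt16, the partner of the Krt6 keratins, had 127, 88.8 and 105 CPM in Gnas-eKO Con, 439, 168, 1245 and 602 in Gnas-eKO BCC, 72.3, 68.3 and 44.1 in PKI Con and 6456, 6298, 3154 and 3379 in PKI BCC. All BCC libraries lay above all Con libraries, and PKI BCC lay above Gnas-eKO BCC. The difference was 3.77 (SE 0.72, 95% interval 2.23 to 5.32, edgeR adjusted p 0.00844). Krt6a had 1.97 (SE 0.50, edgeR adjusted p 0.0279), which held without 6 of 14 libraries. Reads of Krt6a and Krt6b may be divided between these near-identical genes. Krt17, another wound keratin, rose by 1.46 in PKI and 1.58 in Gnas-eKO on the log2 scale, with an uncalled difference of −0.12. In the list of wound keratins and alarmins, 12 of 20 rose in PKI and 4 of 20 in Gnas-eKO, and 3 differed (8 without Gnas-eKO BCC replicate 3).

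Small proline-rich proteins are cross-linked into the cornified envelope. All 14 tested had a positive difference, 3 of them called, with a median of 2. In PKI 12 of 14 rose. Sprr2a2 had 254, 226 and 79.8 CPM in Gnas-eKO Con, 215, 101, 521 and 70.4 in Gnas-eKO BCC, 363, 157 and 74.4 in PKI Con and 9168, 8841, 6423 and 3192 in PKI BCC. The lowest PKI BCC library, replicate 4, was above every library of the other groups. The difference was 4.84 (SE 1.04, 95% interval 2.59 to 7.09, edgeR adjusted p 0.0155), but Sprr2a1 overlaps Sprr2a2 on the same strand, so the split of reads between them is uncertain. Sprr1a had 1.50 (SE 0.41, edgeR adjusted p 0.0369), and its call held without 5 of 14 libraries. The list's count of 3 was 1 without any of Gnas-eKO Con replicate 1, Gnas-eKO Con replicate 2, PKI Con replicate 3 and PKI BCC replicate 2.

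Of 28 terminal differentiation genes, which build the granular and cornified layers, 9 had a called negative difference, 1 a positive one and 18 no call, with a median of −0.51. In PKI 12 fell, and in Gnas-eKO 1 rose and 2 fell. Lor encodes loricrin, the most abundant protein of the cornified envelope (GRCm38 chromosome 3, 92080271 to 92083142, minus strand), and had 314, 225 and 387 CPM in Gnas-eKO Con, 636, 290, 381 and 362 in Gnas-eKO BCC, 614, 839 and 736 in PKI Con and 82.1, 162, 128 and 198 in PKI BCC. Each PKI BCC library was below each of the other 10. The difference was −2.79 (SE 0.43, 95% interval −3.72 to −1.86, edgeR adjusted p 0.00312). Lce1b, a late cornified envelope gene, had 28.8, 19.3 and 14 CPM in Gnas-eKO Con, 56.3, 32.6, 37.8 and 18.1 in Gnas-eKO BCC, 74.5, 46.1 and 39 in PKI Con and 4.8, 7.04, 6.37 and 9.41 in PKI BCC. PKI BCC was again the lowest group, and PKI Con lay above Gnas-eKO Con. The difference was −3.75 (SE 0.52, 95% interval −4.88 to −2.62, edgeR adjusted p 0.00243), and that of Lce1a1 was −3.73 (SE 0.47, edgeR adjusted p 0.0019). Lce1 genes are similar in sequence and may share reads.

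Tgm3, a transglutaminase that cross-links the envelope, was the exception, with 431, 431 and 490 CPM in Gnas-eKO Con, 145, 289, 180 and 162 in Gnas-eKO BCC, 392, 420 and 476 in PKI Con and 388, 468, 638 and 473 in PKI BCC. It fell in Gnas-eKO (−1.22 (edgeR adjusted p 0.0039)) and was not called in PKI (0.20 (edgeR adjusted p 0.541)), with a difference of 1.41 (SE 0.30, 95% interval 0.77 to 2.06, edgeR adjusted p 0.0127). The count of negative calls was 5 without Gnas-eKO Con replicate 2, and Lor, Lce1a1, Lce1b and Tgm3 were each called without every 1 library. The keratins of the spinous layer, Krt1 and Krt10, had uncalled differences of 1.45 and 0.28.

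Of 14 basal keratinocyte genes 1, Krt15, had a called difference, a negative one, and the median was −0.22. In PKI 6 of the 14 fell, and in Gnas-eKO 2 did. There were 2 negative calls without Gnas-eKO Con replicate 3 or Gnas-eKO BCC replicate 3, and 1 positive call without Gnas-eKO BCC replicate 2. Of 26 follicle progenitor genes 2 had a called positive and 3 a called negative difference. Krt15, a keratin of basal and bulge cells (GRCm38 chromosome 11, 100131758 to 100135928, minus strand), had 1397 to 1881 CPM (Gnas-eKO Con), 1829 to 2325 CPM (Gnas-eKO BCC), 1856 to 2266 CPM (PKI Con) and 968 to 1160 CPM (PKI BCC). The PKI BCC libraries lay below all others, and the difference was −1.29 (SE 0.21, 95% interval −1.73 to −0.85, edgeR adjusted p 0.00325). Lgr5, which marks cycling follicle stem cells, had 13.3, 15.2 and 16.6 CPM in Gnas-eKO Con, 126, 37.9, 124 and 148 in Gnas-eKO BCC, 19.6, 16.3 and 14.8 in PKI Con and 24.9, 18.2, 23.6 and 27.9 in PKI BCC. It rose in Gnas-eKO, where replicate 2 was the lowest, and the PKI BCC libraries overlapped PKI Con. The difference was −2.37 (SE 0.48, 95% interval −3.40 to −1.35, edgeR adjusted p 0.0107). Lef1, the transcription factor that carries Wnt signals in hair matrix cells, had 5.7, 2.56 and 5.15 CPM in Gnas-eKO Con, 12.3, 7.56, 8.47 and 9.89 in Gnas-eKO BCC, 5.3, 1.76 and 2.58 in PKI Con and 27.1, 31.3, 27.1 and 24.3 in PKI BCC. It rose in both models, with PKI BCC above Gnas-eKO BCC, and the difference was 1.98 (SE 0.46, 95% interval 1.0 to 2.96, edgeR adjusted p 0.0179). Its call ended without Gnas-eKO Con replicate 1 or PKI Con replicate 3, with an adjusted p of at most 0.0542. Dlx3, a regulator of hair differentiation, had 1.57 (SE 0.39, edgeR adjusted p 0.0245), not called without 3 libraries (Gnas-eKO Con replicate 2, PKI Con replicate 2 and PKI Con replicate 3). Pthlh, a secreted peptide that signals through Gs-coupled receptors, rose in Gnas-eKO (1.45 (edgeR adjusted p 0.0238)) and had a difference of −1.96 (SE 0.50, edgeR adjusted p 0.0284), called without 7 of 14 libraries. In the progenitor list 10 genes rose in each model. Its 2 positive and 3 negative calls were 4 and 8 without Gnas-eKO BCC replicate 2, the negative calls were 6 without Gnas-eKO BCC replicate 3, and no positive call was left without PKI Con replicate 3. There was 1 positive call without Gnas-eKO Con replicate 1 or 2 or PKI Con replicate 2, and 1 negative call without any Gnas-eKO Con library, PKI Con replicate 2 or 3 or PKI BCC replicate 1.

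**Figure D4:**
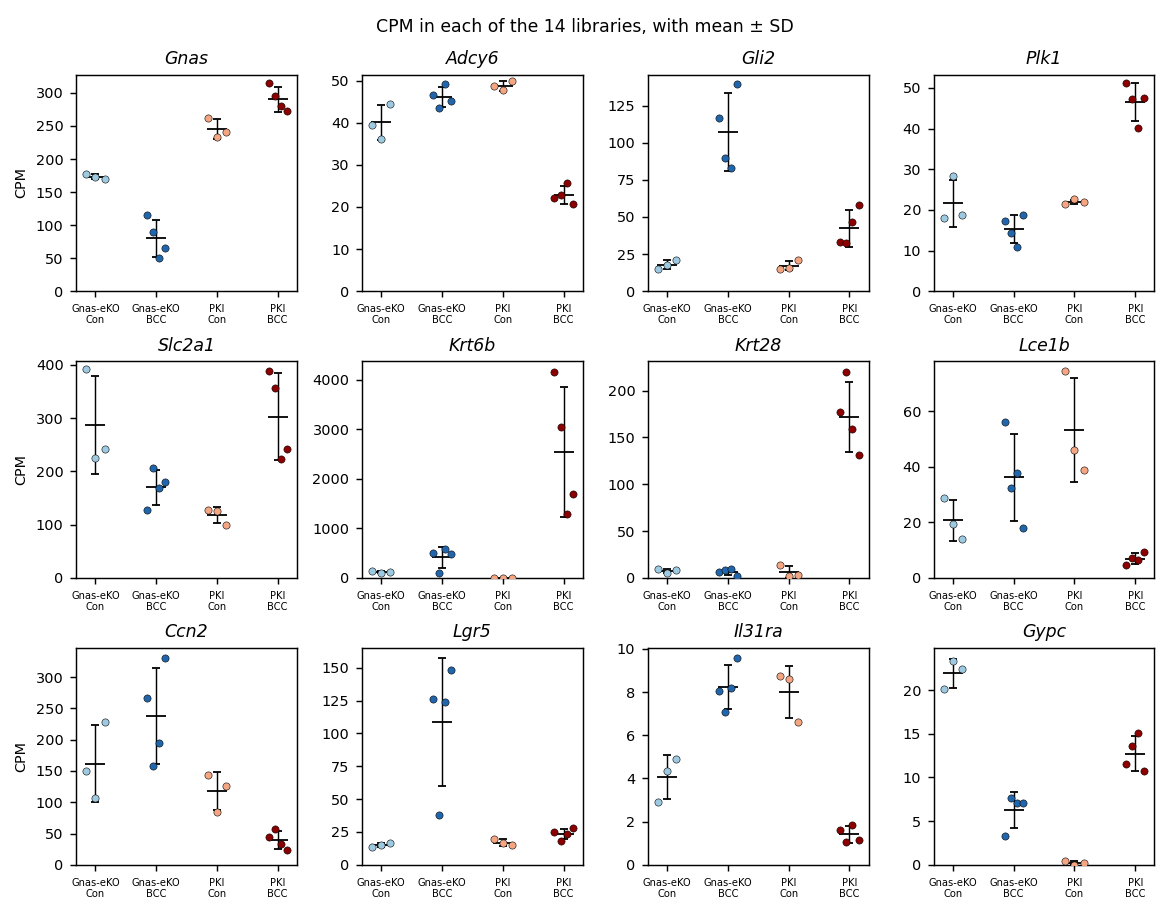
CPM of 12 genes in each of the 14 libraries, on a linear axis from 0 for each gene, with the mean and SD of each group (n = 3 Con, n = 4 BCC). Gnas is lowest in Gnas-eKO BCC; Adcy6, Lce1b, Ccn2 and Il31ra are lowest in PKI BCC; Plk1, Krt6b and Krt28 are highest there; Gypc has its highest values in Gnas-eKO Con.

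YAP targets, genes switched on by the growth regulator YAP with its TEAD partners, had 6 of 22 called negative differences, with a median of −0.16. Ccn2, a secreted matricellular protein (GRCm38 chromosome 10, 24595442 to 24598683, plus strand), had 150, 107 and 229 CPM in Gnas-eKO Con, 267, 157, 195 and 331 in Gnas-eKO BCC, 143, 84.1 and 125 in PKI Con and 44.2, 57.5, 32.6 and 23.9 in PKI BCC. The PKI BCC libraries lay below PKI Con, and the Gnas-eKO groups overlapped. The difference was −2.13 (SE 0.48, 95% interval −3.15 to −1.10, edgeR adjusted p 0.0173). Nt5e, the ectoenzyme CD73 that makes adenosine, rose in Gnas-eKO and fell in PKI, with 49.8, 50 and 43.6 CPM in Gnas-eKO Con, 128, 69.2, 134 and 112 in Gnas-eKO BCC, 52.4, 49.6 and 43.2 in PKI Con and 33.3, 26.3, 33.1 and 32.7 in PKI BCC. In neither model did BCC overlap Con. The difference was −1.84 (SE 0.26, 95% interval −2.39 to −1.29, edgeR adjusted p 0.0024). Rbms3, an RNA-binding protein, had −2.31 (SE 0.55, edgeR adjusted p 0.0214). The count was 2 without Gnas-eKO Con replicate 2, where Ccn2 had an adjusted p of 0.0527, 3 without Gnas-eKO Con replicate 1 or PKI Con replicate 3, and 10 without Gnas-eKO BCC replicate 3. Rbms3 was also lost without Gnas-eKO Con replicate 1 or PKI Con replicate 3. Nt5e held without each library. The letters GGAATG of the TEAD site, on either strand, stood in 7 of 15 promoters of this list (46.7%), against 14.6% of all tested promoters, and in 17.4% of those with a negative difference.

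Of 27 Wnt pathway genes, 3 had a positive and 5 a negative called difference. Wnt11, a ligand, rose in both models and more in PKI, with 2.57, 3.28 and 2.63 CPM in Gnas-eKO Con, 7.64, 4.15, 6.3 and 3.65 in Gnas-eKO BCC, 2.85, 3.4 and 1.68 in PKI Con and 18.7, 18.1, 15.3 and 17.4 in PKI BCC. PKI BCC stood apart from the other 3 groups, and the difference was 1.77 (SE 0.38, 95% interval 0.95 to 2.59, edgeR adjusted p 0.0135). Wnt5a, another ligand, rose in PKI (1.40 (edgeR adjusted p 0.000453)) and had a difference of 1.09 (SE 0.27, edgeR adjusted p 0.0237). Wnt7b, a ligand of the epidermis, rose in Gnas-eKO (1.52 (edgeR adjusted p 0.000414)) and had −1.13 (SE 0.24, edgeR adjusted p 0.0135). The receptor gene Fzd7 had −1.43 (SE 0.33, edgeR adjusted p 0.0197), and Axin2, a feedback target of the pathway, fell in PKI (−1.14 (edgeR adjusted p 0.000876)) and had −0.96 (SE 0.25, edgeR adjusted p 0.0326). Wnt11 and Wnt7b held without each library. Fzd7 was lost without Gnas-eKO Con replicate 1 or 2, Wnt5a without Gnas-eKO Con replicate 2, PKI Con replicate 1 or PKI Con replicate 3, and Axin2 without any 1 of 7 libraries. With each lost call the adjusted p stayed at or below 0.0887. The list's positive calls numbered 1 without Gnas-eKO Con replicate 2 or PKI Con replicate 3 and 6 without Gnas-eKO BCC replicate 2. Its negative calls numbered 1 without Gnas-eKO Con replicate 1 or 2, 2 without PKI Con replicate 2 or PKI BCC replicate 1 or 2, and 3 without Gnas-eKO BCC replicate 4 or PKI Con replicate 1 or 3.

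Among 20 BMP pathway genes, 4 had a negative and 1 a positive called difference. Grem1, a secreted BMP antagonist, had 16.2, 18.2 and 21.9 CPM in Gnas-eKO Con, 44.3, 26, 12.4 and 34.5 in Gnas-eKO BCC, 20.6, 19.5 and 27.2 in PKI Con and 4.39, 4.8, 9.13 and 5.79 in PKI BCC. It fell in PKI without overlap, and the difference was −2.54 (SE 0.49, 95% interval −3.60 to −1.47, edgeR adjusted p 0.00926). Smad9, which carries BMP signals into the nucleus, had 1.51, 1 and 1.72 CPM in Gnas-eKO Con, 5.8, 9.64, 2.91 and 11.1 in Gnas-eKO BCC, 3.6, 2.14 and 1.68 in PKI Con and 1.19, 1.2, 1.76 and 0.595 in PKI BCC. It rose in Gnas-eKO (2.38 (edgeR adjusted p 0.00772)), and the difference was −3.43 (SE 0.65, 95% interval −4.82 to −2.04, edgeR adjusted p 0.00745). Bmp4, a ligand, rose in PKI (1.01 (edgeR adjusted p 0.0365)) with 1.70 (SE 0.47, edgeR adjusted p 0.0369), called without 3 of 14 libraries. In the Notch list, Heyl, a Notch target, rose in both models with 2.02, 0.779 and 1.21 CPM in Gnas-eKO Con, 8.43, 3.41, 4.5 and 10.8 in Gnas-eKO BCC, 1.25, 0.126 and 0.18 in PKI Con and 25.1, 32.4, 27.3 and 22.8 in PKI BCC. Its difference of 3.26 (SE 0.80, 95% interval 1.52 to 4.99, edgeR adjusted p 0.0256) rests on PKI Con values of which 2 are near the floor, and was lost without any 1 of 4 libraries (Gnas-eKO Con replicate 1, PKI Con replicate 2, PKI Con replicate 3, PKI BCC replicate 2). Jag2, a Notch ligand, fell in PKI (−0.67 (edgeR adjusted p 0.000549)) with a difference of −0.66 (SE 0.14, edgeR adjusted p 0.0117). Of 15 EGF receptor ligands and receptors, 1 differed: Btc, the ligand betacellulin, had 4.17 to 6.25 CPM (Gnas-eKO Con), 2.93 to 5.54 CPM (Gnas-eKO BCC), 8.34 to 14.6 CPM (PKI Con) and 1.6 to 2.11 CPM (PKI BCC) and a difference of −2.23 (SE 0.38, 95% interval −3.04 to −1.43, edgeR adjusted p 0.00426). Without Gnas-eKO BCC replicate 2 or 3 this list had 2 negative calls and 1 positive one, and DESeq2 called 3 negative and 2 positive.

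Of 26 chemokines and cytokines, 18 rose in PKI and 4 in Gnas-eKO, and whether these counts differ was not tested. In the difference 3 were called positive and 2 negative. The positive count was 1 without any of 9 libraries (all but Gnas-eKO Con replicate 2, Gnas-eKO BCC replicates 1 to 3 and PKI BCC replicate 4), while the negative count was 0 without Gnas-eKO Con replicate 2 or PKI Con replicate 3 and 1 without any of 7 others (Gnas-eKO Con replicates 1 and 3, Gnas-eKO BCC replicates 1 and 4, PKI Con replicate 2, PKI BCC replicates 1 and 3). Cxcl1, which attracts neutrophils (GRCm38 chromosome 5, 90891241 to 90893115, plus strand), had 1.92, 1.28 and 3.28 CPM in Gnas-eKO Con, 1.2, 0.426, 1.96 and 2.5 in Gnas-eKO BCC, 0.45, 0.252 and 0.36 in PKI Con and 18.9, 15.7, 2.63 and 3.57 in PKI BCC. PKI BCC replicates 1 and 2 were far above replicates 3 and 4, and all 4 were above PKI Con, while replicate 3 lay within the Gnas-eKO Con range. The difference was 5.31 (SE 1.08, 95% interval 2.98 to 7.64, edgeR adjusted p 0.0113) and held without each library. Il33, an alarmin, fell in Gnas-eKO (−1.12 (edgeR adjusted p 0.0398)) and had 1.58 (SE 0.45, edgeR adjusted p 0.0453), called without 3 of 14 libraries. The 18 tested interferon-stimulated genes had a median difference of 0.19.

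Markers of other cells were measured beside these results. Leukocyte markers had 4 of 20 called positive differences: Ptprc, Itgax, Cd207 and H2-Aa. In PKI 13 of 20 rose, and in Gnas-eKO 1 rose and 2 fell. Their summed CPM was 374 to 452 in Con and 440 to 844 in BCC of Gnas-eKO, and 164 to 327 in Con and 588 to 1114 in BCC of PKI, so PKI BCC lay above PKI Con, and PKI Con lay below Gnas-eKO Con. Itgax, an integrin of dendritic cells, had 1.92, 2.17 and 1.47 CPM in Gnas-eKO Con, 4.47, 2.13, 2.06 and 1.49 in Gnas-eKO BCC, 1.25, 0.566 and 0.36 in PKI Con and 12.6, 6.57, 6.1 and 6.87 in PKI BCC, and its difference was 2.97 (SE 0.63, 95% interval 1.63 to 4.32, edgeR adjusted p 0.0123). Cd207, the langerin of Langerhans cells, had 1.96 (SE 0.55, edgeR adjusted p 0.0404), and H2-Aa, an MHC class II chain, had 2.29 (SE 0.61, edgeR adjusted p 0.0357). Itgax held without each library, Cd207 without 7 of 14 and H2-Aa without 6, and the list's count ran from 1 (without Gnas-eKO Con replicate 1 or 2, PKI Con replicate 2 or 3, or PKI BCC replicate 1 or 2) to 7 (without PKI Con replicate 1). In bulk RNA, more cells of a type and more RNA per cell cannot be told apart. The part of leukocytes in the cytokine results was not tested.

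Of 12 neutrophil markers 3 passed the filter on low counts, and Itgam and Cxcr2 had called positive differences, while the third, Camp, an antimicrobial peptide, had an uncalled one of −1.61. Itgam, an integrin of neutrophils and macrophages, had 9.28 to 17.6 CPM (Gnas-eKO Con), 2.96 to 7.03 CPM (Gnas-eKO BCC), 8.55 to 12.6 CPM (PKI Con) and 10.5 to 15.2 CPM (PKI BCC). It fell in Gnas-eKO (−1.66 (edgeR adjusted p 0.0039)) and was not called in PKI (0.28 (edgeR adjusted p 0.51)), with a difference of 1.94 (SE 0.41, edgeR adjusted p 0.0118), while Cxcr2, the receptor of Cxcl1, had 2.47 (SE 0.72, edgeR adjusted p 0.0466) and held without 4 of 14 libraries. Melanocyte markers had negative differences in 11 of 11, of which Dct and Mitf were called, with a summed CPM of 180 to 232 in Con and 91.9 to 143 in BCC of PKI against 137 to 205 and 147 to 240 in Gnas-eKO. Dct, a pigment enzyme, had −1.17 (SE 0.27, edgeR adjusted p 0.0193), and Mitf, the regulator of melanocytes that cyclic AMP induces, had −1.20 (SE 0.29, edgeR adjusted p 0.0235). No member of this list was called without Gnas-eKO Con replicate 2. Of 7 nerve and Schwann cell markers, 3 had differences above 0, with a median of −0.28 and a summed CPM of 68.8 to 77.5 in Con and 47.8 to 69.1 in BCC of Gnas-eKO. Ncam1, an adhesion molecule of these cells, rose in Gnas-eKO (2.64 (edgeR adjusted p 0.00245)) and had −2.42 (SE 0.56, edgeR adjusted p 0.0187), lost without Gnas-eKO Con replicate 1, Gnas-eKO Con replicate 2 or PKI Con replicate 1. Fibroblast markers summed to 164 to 189 CPM in Con and 177 to 697 in BCC of Gnas-eKO. In PKI the sums were 59 to 106 in Con and 181 to 227 in BCC. Of the 10 tested, 6 rose and 1 fell in Gnas-eKO, and 3 rose in PKI. In the difference edgeR called none of 10 (1 at an unadjusted p under 0.05), and DESeq2 and limma 1 each. One was called by edgeR without Gnas-eKO BCC replicate 2 or PKI BCC replicate 4. The joint fit of 21 libraries, the fit that was not robust and the Xist covariate also gave 1 call each. EdgeR called none of 7 endothelial, 2 muscle, 4 Merkel cell, 2 adipocyte and 5 erythrocyte genes, of which 0, 1, 2, 2 and 0 had an unadjusted p under 0.05. DESeq2 called 1 muscle and 1 Merkel cell gene, and limma 0 of these. The 4 Merkel cell genes all had negative differences, with a median of −1.73. Of them edgeR called 3 negative without Gnas-eKO BCC replicate 3, and 1 without Gnas-eKO BCC replicate 2 or PKI BCC replicate 4. It called 1 muscle gene positive without Gnas-eKO BCC replicate 3 or PKI Con replicate 1. In the joint fit of 21 libraries it called 1 muscle gene positive and 1 Merkel cell gene negative. Erythrocyte genes summed to 15 to 273 CPM in Gnas-eKO BCC and 0.886 to 20.5 in PKI BCC.

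**Figure D5:**
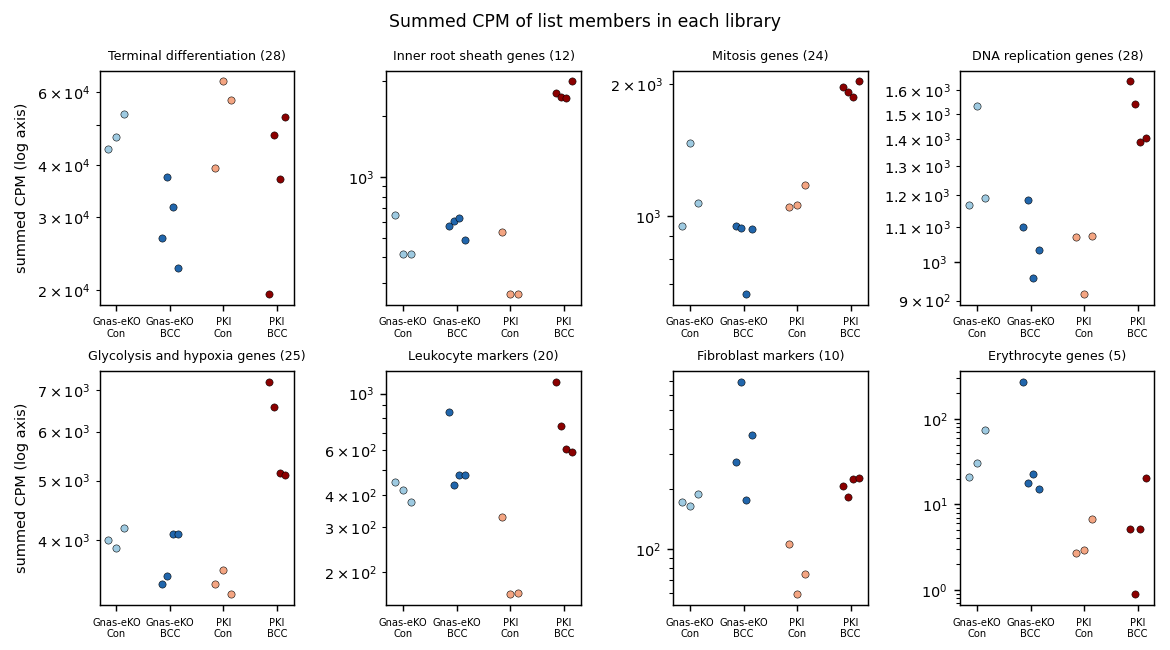
Summed CPM of the tested members of 8 lists in each of the 14 libraries, on a log axis that differs between panels. The inner root sheath, mitosis and glycolysis sums are highest in the 4 PKI BCC libraries; the fibroblast and erythrocyte sums are highest in 1 Gnas-eKO BCC library each.

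Of 23 sterol synthesis genes, 20 had a difference below 0, of which 5 were called, with a median of −0.55. Among them Lss, which forms lanosterol, had −1.03 (SE 0.24, edgeR adjusted p 0.0182) and Idi1, which makes an isoprenoid precursor, had −1.21 (SE 0.29, edgeR adjusted p 0.0213). No member of the list was called without Gnas-eKO Con replicate 1 or without PKI Con replicate 2, and the count was 1 without Gnas-eKO Con replicate 2, 2 without PKI Con replicate 1 or 3, 3 without PKI BCC replicate 2 and 7 without Gnas-eKO BCC replicate 2. Without Gnas-eKO BCC replicate 3 there were 6 negative calls and 1 positive one. Of 18 targets of the antioxidant regulator Nrf2, Slc7a11 and G6pdx were called. Slc7a11, the cystine transporter, rose in PKI and fell in Gnas-eKO with 12.7, 17 and 18.1 CPM in Gnas-eKO Con, 6.77, 10.9, 9.63 and 7.68 in Gnas-eKO BCC, 5.35, 9.63 and 7.5 in PKI Con and 13.8, 18.4, 19.2 and 16.3 in PKI BCC. BCC and Con of PKI did not overlap, nor did those of Gnas-eKO, and the difference was 2.05 (SE 0.31, 95% interval 1.38 to 2.71, edgeR adjusted p 0.00263). G6pdx, which feeds the pentose phosphate pathway, had 0.87 (SE 0.17, edgeR adjusted p 0.00926). Of 28 primary cilium genes 26 had a difference below 0, and 2 were called, (5 without Gnas-eKO BCC replicate 2, and 1 without any of 10 others, all but Gnas-eKO BCC replicates 1 and 3 and PKI BCC replicate 3), among them Ift81 of the intraflagellar transport machinery with −0.99 (SE 0.18, edgeR adjusted p 0.00695). Of 26 matrix and remodelling genes, 10 rose in each model and Col5a1, a fibrillar collagen, alone differed, with −1.21 (SE 0.33, edgeR adjusted p 0.0376), lost without any 1 of 10 libraries. The list's negative calls numbered 6 without Gnas-eKO BCC replicate 3 and 3 without Gnas-eKO BCC replicate 2, and 1 positive call appeared without Gnas-eKO BCC replicate 2 or PKI Con replicate 1. The 12 sebaceous gland genes all had negative differences, with a median of −0.74, and 6 fell in PKI. Of them Acsbg1, a fatty acyl-CoA synthetase, was called in the difference, with −1.34 (SE 0.36, edgeR adjusted p 0.0328), a call that held without 5 of 14 libraries. The list's count was 4 without PKI BCC replicate 1, 2 without Gnas-eKO BCC replicate 3 and 5 with the Xist covariate. None of 40 cytosolic ribosomal protein genes and none of 33 oxidative phosphorylation genes was called by edgeR, with medians of 0.01 and 0.28 and with 0 and 5 genes at an unadjusted p under 0.05. DESeq2 called 0 and 2 of them, and limma 0. Without Gnas-eKO BCC replicate 3, edgeR called 4 ribosomal and 12 oxidative phosphorylation genes positive. In the joint fit of 21 libraries it called 1 oxidative phosphorylation gene positive.

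In 110 genes the effects were called in both models and in opposite directions. All 110 were called in the difference, in which 2 called effects of opposite sign add up. In the fit of 14 libraries 59 of the 110 rose and 51 fell in Gnas-eKO. A fit of the 7 Gnas-eKO libraries alone called 240 genes higher and 27 lower in all. How many of the 110 it called was not tested. Il31ra, a receptor subunit for the itch cytokine IL-31 (GRCm38 chromosome 13, 112519898 to 112594360, minus strand), had 2.92, 4.34 and 4.9 CPM in Gnas-eKO Con, 8.06, 7.08, 8.21 and 9.6 in Gnas-eKO BCC, 8.75, 8.62 and 6.6 in PKI Con and 1.6, 1.04, 1.84 and 1.14 in PKI BCC. It rose in Gnas-eKO and fell in PKI, each without overlap of BCC and Con. The difference was −3.52 (SE 0.34, 95% interval −4.25 to −2.79, edgeR adjusted p 0.000249). Abi3bp, a protein of the extracellular matrix, had 10.8, 8.46 and 17.6 CPM in Gnas-eKO Con, 38.3, 17.8, 44.1 and 37.5 in Gnas-eKO BCC, 16.6, 15.8 and 16.7 in PKI Con and 3.92, 4.64, 7.33 and 4.6 in PKI BCC. The direction was the same, again without overlap, and the difference was −3.15 (SE 0.44, 95% interval −4.09 to −2.22, edgeR adjusted p 0.0024). Pik3ip1, which restrains PI3 kinase, had 11.8, 16 and 18.2 CPM in Gnas-eKO Con, 37.8, 27.6, 32.7 and 53.2 in Gnas-eKO BCC, 21.9, 18.6 and 18.9 in PKI Con and 10.1, 7.71, 10 and 13.6 in PKI BCC. The difference was −2.24 (SE 0.32, 95% interval −2.92 to −1.55, edgeR adjusted p 0.00243). Adamtsl4, an ADAMTS-like matrix protein, had −2.43 (SE 0.28, edgeR adjusted p 0.000955), and Gpsm1, which binds inhibitory G protein alpha subunits, had −2.62 (SE 0.47, edgeR adjusted p 0.00568). The calls of these genes in the difference held without each library in turn.

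The control groups also differed. In 86 of the 775 genes with a positive difference and in 70 of the 789 with a negative one, the offset between the 2 Con groups was larger than that between the 2 BCC groups. Gypc, a membrane glycoprotein best known from red blood cells, had 20.1, 23.3 and 22.4 CPM in Gnas-eKO Con, 3.27, 7.67, 7.04 and 7.1 in Gnas-eKO BCC, 0.4, 0 and 0.24 in PKI Con and 11.5, 13.7, 15.1 and 10.7 in PKI BCC. It was at or near the 3-count floor in PKI Con and at its highest in Gnas-eKO Con, so that it fell in Gnas-eKO and rose in PKI. The fitted difference was 7.59 (SE 0.57, 95% interval 6.36 to 8.82, edgeR adjusted p 4.23e-05), which had the smallest p of all genes, and it depends on values near the floor. Mill2, an MHC class I-like gene, had 1.46, 2.56 and 2.53 CPM in Gnas-eKO Con, 8.47, 14.9, 8.42 and 13 in Gnas-eKO BCC, 3.15, 4.59 and 6.06 in PKI Con and 0.877, 0.417, 1.54 and 2 in PKI BCC. It rose in Gnas-eKO and fell in PKI without overlap, with a difference of −4.27 (SE 0.59, 95% interval −5.54 to −3.01, edgeR adjusted p 0.0024). Slc15a2, a peptide transporter, had 0.403, 0 and 0.202 CPM in Gnas-eKO Con, 29.4, 6.23, 3.18 and 23.9 in Gnas-eKO BCC, 40.5, 40.5 and 20.8 in PKI Con and 18.2, 0.73, 1.58 and 40.2 in PKI BCC. It was near the floor in Gnas-eKO Con and high in PKI Con, and its PKI BCC libraries ran over the whole range. The difference was −7.37 (SE 2.01, 95% interval −11.77 to −2.97, edgeR adjusted p 0.0431), lost without any 1 of 9 libraries. Nptx1, a pentraxin, had −4.18 (SE 0.91, edgeR adjusted p 0.0155) and was lost without Gnas-eKO Con replicate 2 (adjusted p 0.0534). Vcan, the proteoglycan versican, had 2.22, 2.23 and 4.5 CPM in Gnas-eKO Con, 185, 21.9, 39 and 260 in Gnas-eKO BCC, 4.6, 4.91 and 4.98 in PKI Con and 9.34, 5.21, 14.8 and 12.6 in PKI BCC. It rose in Gnas-eKO, least in replicates 2 and 3, and its difference was −4.28 (SE 1.09, 95% interval −6.67 to −1.89, edgeR adjusted p 0.0332), called without 6 of 14 libraries.

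Other changes were shared. In 642 genes both effects were called in the same direction, of which 30 differed. With a change of at least 4-fold in both models and a mean log2 CPM of at least 2, 66 genes remained, of which 5 differed. Nrp2, a receptor for semaphorins and VEGF (GRCm38 chromosome 1, 62703285 to 62818695, plus strand), had 34, 28.8 and 37.9 CPM in Gnas-eKO Con, 407, 101, 152 and 356 in Gnas-eKO BCC, 48.3, 24.9 and 33.8 in PKI Con and 262, 257, 269 and 316 in PKI BCC. All BCC libraries lay above all Con libraries, and the PKI BCC values lay within the range of Gnas-eKO BCC. It rose by 2.92 in Gnas-eKO and by 2.95 in PKI on the log2 scale, and the difference was 0.03 (SE 0.55, 95% interval −1.15 to 1.22, edgeR adjusted p 0.979). Adamts1, a secreted metalloprotease, had 19, 12.6 and 24.1 CPM in Gnas-eKO Con, 196, 35.8, 126 and 232 in Gnas-eKO BCC, 12.4, 11 and 11.8 in PKI Con and 120, 81.7, 88.3 and 92.5 in PKI BCC. The difference was 0.04 (SE 0.63, 95% interval −1.32 to 1.41, edgeR adjusted p 0.978). These intervals, among the narrowest around 0 of the 66, still allow differences of more than 2-fold in either direction, so the data do not show that the effects are equal.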

How the data were processed

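RNA of tail keratinocytes was sequenced from a stranded polyA ligation library per sample, per the labels' protocols. The submitters' processing notes name bcl2fastq 2.20, cutadapt 1.18, STAR 2.7.0f, Partek and the genome build mm10; the counting tool and its use of strand are not given in the sources used here. The authors deposited estimated counts per gene without normalization (33.1% of values not whole, no gene under 10 counts in all) and a second table of signal that they name TMM-normalized, which served as an alternative.

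Rounding the estimated counts preceded the test, which used edgeR 4.0.16 (R 4.3.3): filterByExpr by group, TMM scaling, robust quasi-likelihood fit on the 14 libraries without a block, and Benjamini-Hochberg adjustment over all 17254 genes, with a call at an adjusted p under 0.05. Standard errors are the absolute log2 value divided by the square root of F. Alternatives used DESeq2 1.42.0, limma 3.58.1 on log2 of the authors' signal plus 1, other scalings, filters and samples. The fit was tested on simulated data.

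Members and lists were chosen with earlier results of these data known. Named genes were, by rule, the 10 highest and 10 lowest called differences, the 12 largest differences among genes called in opposite directions, the 4 of those called in the same direction (at least 4-fold in both) whose interval stayed nearest 0, up to 3 called genes per list and direction, and a fixed set of Gs-PKA, Hedgehog and basal keratin genes. The first 3 kinds needed an average log2 CPM of 2 or more. The text gives a part of them, and Areg, Cdk1, Golga7b, Impdh1, Lor, Pkm and Top2a were chosen after their values were seen. Of 730 list entries 659 were tested. Values of some list members are not reported here. Floors of 3 counts cover counting error only. Replicates of a group differed by more than sampling noise. Figures were drawn with matplotlib 3.10.9.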

Additional observations from a re-analysis of the deposited data

Results flagged for a closer look

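The difference between the effects of the 2 models was itself tested and was called in 1564 genes. In 110 genes the effects were called in opposite directions in the fit of 14 libraries. The 7 Gnas-eKO libraries alone gave 267 calls, 27 of them lower.

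In the 4 BCC libraries of each model, the gene and group pairs named in the text were searched for a library far from its companions by Dixon's ratio, with 91 genes and 182 pairs. Chance alone flags about 1 in 20, and 6 were found. In Gnas-eKO BCC, Krt6a was low in replicate 2 at 708 CPM against 2288 to 2499 in the others, and Gypc was low in replicate 1 at 3.27 CPM against 7.04 to 7.67. In the same group, Idi1 was high in replicate 3 at 642 CPM against 333 to 356, and Impdh1 was high in replicate 3 at 26.6 CPM against 21.2 to 21.8. In PKI BCC, Nt5e was low in replicate 2 at 26.3 CPM against 32.7 to 33.3, and Itgax was high in replicate 1 at 12.6 CPM against 6.10 to 6.87. The causes were not tested.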

How the results depend on the processing

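The count of genes called in the difference was 1302 to 1707 under no filter, other size factors, library totals, a fit that was not robust, an Xist covariate and limma on the authors' values. It was 925 with the replicate block (465 positive, 460 negative), 2389 with DESeq2 (1182 and 1207) and 2316 in the joint fit of 21 libraries (1193 negative), and 673 to 2512 without 1 library (344 to 1263 positive, 329 to 1249 negative). Replicate numbers did not pair the libraries, as deviations of same-numbered Con and BCC libraries correlated from −0.058 to 0.257, so the block marks only a number. With it, positive calls were 2 of 12 inner root sheath genes (7 without it) and 0 of 15 hard keratins (3). They were 2 of 18 CREB targets (0), Areg among those called (adjusted p 0.0444), and 7 of 20 leukocyte markers (4). Krt26 and Krt71 had adjusted p of 0.135 and 0.123. Small proline-rich genes had 1 of 14 positive calls (3), Wnt genes 1 of 27 (3), and wound keratins and alarmins 5 of 20 (3). Negative calls were 2 of 30 Gs-PKA (4), 2 of 27 Wnt (5) and 2 of 20 BMP genes (4). Terminal differentiation genes had 11 of 28 (9). Some calls ended with the block, among them Adcy1, Nptx1, Vcan, Wnt5a, Krt35 and Smad9 (edgeR adjusted p 0.0553 to 0.135). PKI effects gave 2749 to 5634 calls without 1 library (1445 to 2954 higher, 1254 to 2680 lower) and 5653 in the PKI libraries alone. Gnas-eKO effects gave 2644 in the joint fit (1071 lower), 744 with the block (556 higher, 188 lower), 267 in its own 7 (240 and 27), 329 lower with library totals, 984 lower with DESeq2 and 518 to 3363 without 1 library (403 to 1862 higher, 115 to 1501 lower). Adamts1 and Nrp2, named for differences near 0, changed sign with library totals (−0.028 and −0.044) and without 1 library (−0.283 to 0.344 and −0.232 to 0.343). Of the 1564 genes, 699 were called under all alternatives that kept every library and 482 also without each library in turn. The cause of these shifts was not tested. Among counts simulated for the difference, 7 of 50 genes raised 2-fold and 49 of 50 raised 4-fold were called. Of genes lowered 2-fold and 4-fold, 11 of 50 and 48 of 50 were called. The simulation gave all genes the same dispersion and set no library apart, so these shares need not hold for the data.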

Other observations

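The late cornified envelope genes on chromosome 3 were looked at family by family after their values were seen. All 14 tested Lce1 genes had a called negative difference, from −4.16 to −2.96 with a median of −3.71, and their median log2 fold change was −2.91 in PKI and 0.71 in Gnas-eKO. Lce6, the single tested gene of its kind, differed by −3.06. The 6 tested Lce3 genes had uncalled differences from −2.53 to 2.92, and their median log2 fold change was 3.66 in PKI and 3.65 in Gnas-eKO. Reads may be shared among members of a family.

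Golga7b and Impdh1 followed Gypc in the order of p-values of the difference. Golga7b, a member of the golgin A7 family, had 4.99, 4.79 and 4.8 CPM in Gnas-eKO Con, 8.11, 5.64, 6.78 and 5.09 in Gnas-eKO BCC, 3.4, 1.38 and 2.94 in PKI Con and 42.4, 51.9, 43.8 and 46 in PKI BCC. The PKI BCC libraries stood far above the rest, and the difference was 3.75 (SE 0.33, 95% interval 3.05 to 4.44, edgeR adjusted p 0.000121). Impdh1, an enzyme of guanine nucleotide synthesis, had 28.9, 30.6 and 27.8 CPM in Gnas-eKO Con, 21.2, 21.4, 26.6 and 21.8 in Gnas-eKO BCC, 22, 22.5 and 21.1 in PKI Con and 47.1, 51.1, 44.9 and 48.9 in PKI BCC. It rose in PKI and fell in Gnas-eKO, each without overlap of BCC and Con, and the difference was 1.49 (SE 0.14, 95% interval 1.19 to 1.79, edgeR adjusted p 0.000204).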
